A study of Drosophila melanogaster with 2 samples.

Results

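The heat shock genes examined were Hsp22, Hsp23, Hsp26, Hsp27, Hsp67Ba and Hsp67Bc of the 67B cluster on chromosome arm 3L, together with Hsp83 on 3L, Hsp68 on 3R and Hsf on 2R of Drosophila melanogaster. Their accessible sites were all lines of the deposited ATAC-seq peak list whose summit lay in the annotated span of 1 of these 9 genes or within 5 kb of it. This rule uses position and no measured value, and it took 34 of the 35535 summits in the list. ATAC-seq inserts sequencing adapters into accessible DNA with the Tn5 transposase. The cells were S2, a line derived from fly embryos with features of hemocytes (fly blood cells), kept at 25 °C, and the labels give no genetic change, drug or heat treatment. The series had 1 group of 2 libraries, each from 2000000 cells and 12 cycles of PCR, and 1 peak list served both, so no value has a replicate error and no groups of samples could be compared. Nothing in the labels says that the 2 libraries came from separate cultures. All 8 hemocyte marker genes examined had a peak within 250 bp of a gene end, against 1 of 4 muscle, 0 of 4 photoreceptor and 0 of 2 gut marker genes, where 60.4% of all protein-coding genes had one.

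Heat shock proteins are chaperones that hold or refold other proteins. Small heat shock proteins bind unfolding proteins without using ATP, while the Hsp70 and Hsp90 families, to which Hsp68 and Hsp83 belong, work through cycles of ATP hydrolysis. Heat shock factor, the product of Hsf, is the transcription factor that trimerises on heat stress and switches these genes on. In flies the heat shock genes are textbook cases of promoters that are kept open before any stress, with a paused RNA polymerase and GAGA factor bound.

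The strength of a site is given as its pileup, the peak caller's count at the summit. It was worked back as a whole number from the deposited fold enrichment and −log10 p. Counts are called fragments here, but whether whole fragments or the separate mates of a read pair were counted is not settled. The fold enrichment itself is the value the authors deposited for that peak. Over the whole list the median pileup was 56 (quartiles 33 and 109) and the median fold was 3.61. The whole list and the set of all protein-coding genes include X, where none of the heat shock genes examined lies. Values were not compared by chromosome. The 8 hemocyte markers ranged from 33 fragments at NimC1 and 52 at Hml to 682 at zfh1. The depth of each library is unknown. Every interval given for a pileup is a 95% interval from the exact Poisson distribution, which reflects the number of fragments counted and no other source of error. All positions are in dm6, counted from 1, and "left" and "right" mean the lower and the higher coordinate of a gene, because the annotation used gives no strand.

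Most sites within 5 kb of the heat shock genes were above the list's median strength, those at neighbouring genes included. The strongest, with 280 fragments, lay in another gene, Pisd. The 34 summits, in 33 intervals, had a median pileup of 94.5 (range 22 to 280) and a median fold of 5.56, and 26 of them were above the list's median pileup of 56. The genes of 67B lie so close together that 11 of its summits counted for more than 1 gene, and the counts per gene summed to 64. A member was the protein-coding gene with the nearest end for 16 of the 34 summits, and another gene was for 18, so many of the sites within 5 kb sat at neighbours. The 18 include 1 tie, a summit 993 bp from the right end that Hsp22 shares with its neighbour CG4456, which was counted for CG4456. Each of the 9 genes had at least 5 summits in its window, as did many genes. Of the 13946 protein-coding genes, 44.2% had fewer than 5 and 88.0% had at least 1. The median over all of them was 5 (quartiles 2 and 8). The median over the 9 heat shock genes was 7. It ran from 5 at Hsp27 and Hsp68 to 10 at Hsp67Ba.

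Near the 5 kb limit, the closest summit inside lay 84 bp within the right limit of Hsp67Bc, with a pileup of 127, and the closest outside lay 134 bp beyond the right limit of Hsp22, with a pileup of 60. The next outside were 171 bp beyond the limit of Hsp68 (pileup 23) and 197 bp beyond that of Hsp67Ba (pileup 42).

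Of the 9 genes, 8 had a peak overlapping the 250 bp on either side of a gene end, against 60.4% of all protein-coding genes. With 9 genes chosen with earlier results known, this count is a description and was not tested. A peak lay at 1 end only in 7 of them and at both ends in 1, Hsp83. Among all protein-coding genes 48.6% had a peak at 1 end only and 11.7% at both. The highest pileup at an end had a median of 156 over the 8 open heat shock genes and 98 (quartiles 62 and 150) over the 8421 open protein-coding genes. In 7 of the 8 it was above that median of 98. The 8421 include genes on X, where none of the 8 lies, and the part of this in the difference was not tested.

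The genes differed in strength at their ends, though most neighbours in the order could not be separated. Hsp23 was highest with 237 fragments (95% interval 208 to 269), then Hsp68 with 212 (184 to 243), Hsp83 with 181 (156 to 209) and Hsf with 177 (152 to 205). Next came Hsp27 with 135 (113 to 160), Hsp26 with 127 (106 to 151) and Hsp67Ba with 106 (86.8 to 128). Hsp67Bc was lowest with 42 (30.3 to 56.8), and its interval was the only one in this order that did not overlap the one before it. Hsp22 had no peak at an end. Hsp23 stood above 91.6% of open protein-coding genes, Hsp68 above 88.6%, Hsp83 above 83.4% and Hsf above 82.3%. Hsp27, Hsp26 and Hsp67Ba stood above 69.4%, 65.7% and 54.7%, and Hsp67Bc above 11.6%.

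**Figure D1:**
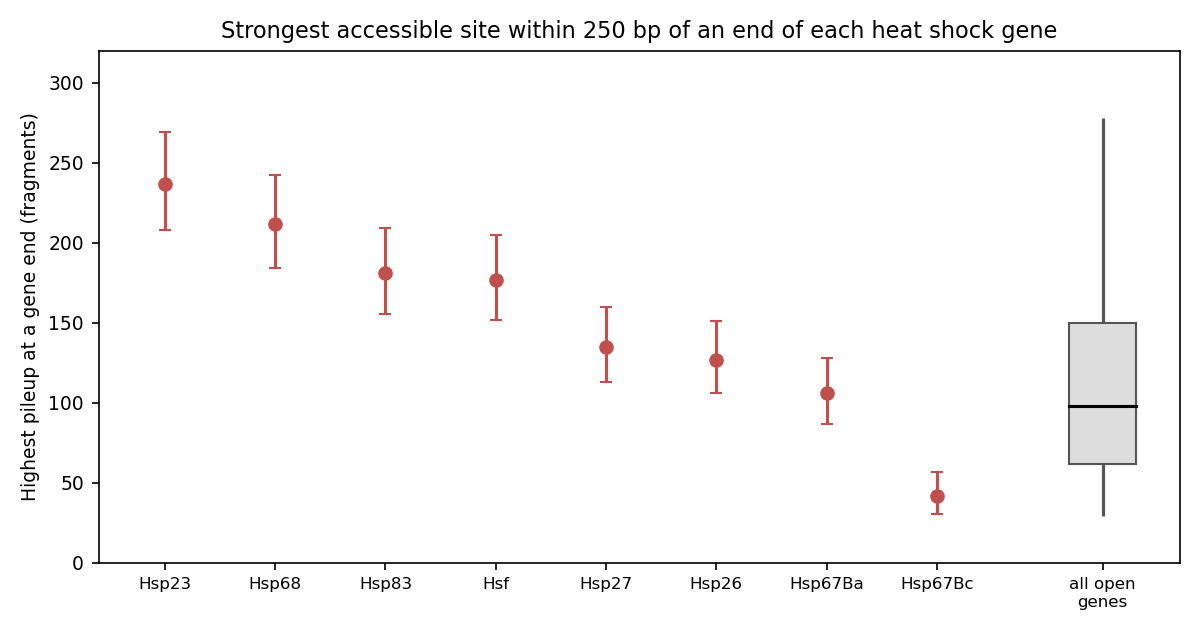
The highest pileup (fragments) of a peak within 250 bp of an end of each of the 8 open heat shock genes, with exact Poisson 95% intervals as bars, and at the right the distribution over all 8421 open protein-coding genes (box from 62 to 150, line at the median of 98, whiskers at the 5 and 95 percentiles). Hsp23 (237) and Hsp68 (212) are at the top, and Hsp67Bc (42) is the only heat shock gene below the box.

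The 67B cluster was described as one stretch of 24.2 kb on 3L, from 9366511 to 9390694, which is the 6 cluster genes with 5 kb on each side. It held 13 summits, or 5.38 per 10 kb, against 2.66 per 10 kb over 3L. Peaks covered 8.62% of it and 3.78% of the arm. Among the 1160 other tiles of this length on 3L, 940 had fewer summits, 46 had as many and 174 had more, so such a density was not rare. The median tile held 5 summits (quartiles 1 and 11). The arm and its tiles ran to the last summit on 3L, and regions poor in peaks were not left out. Between the outer ends of Hsp67Bc and Hsp27, a span of 14.2 kb, lay 11 of the 13 summits, at 7.76 per 10 kb. The other 2 were left of the cluster at Klp67A, a mitotic kinesin gene (pileup 89), and at the left end of CG4452 (pileup 30).

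**Figure D2:**
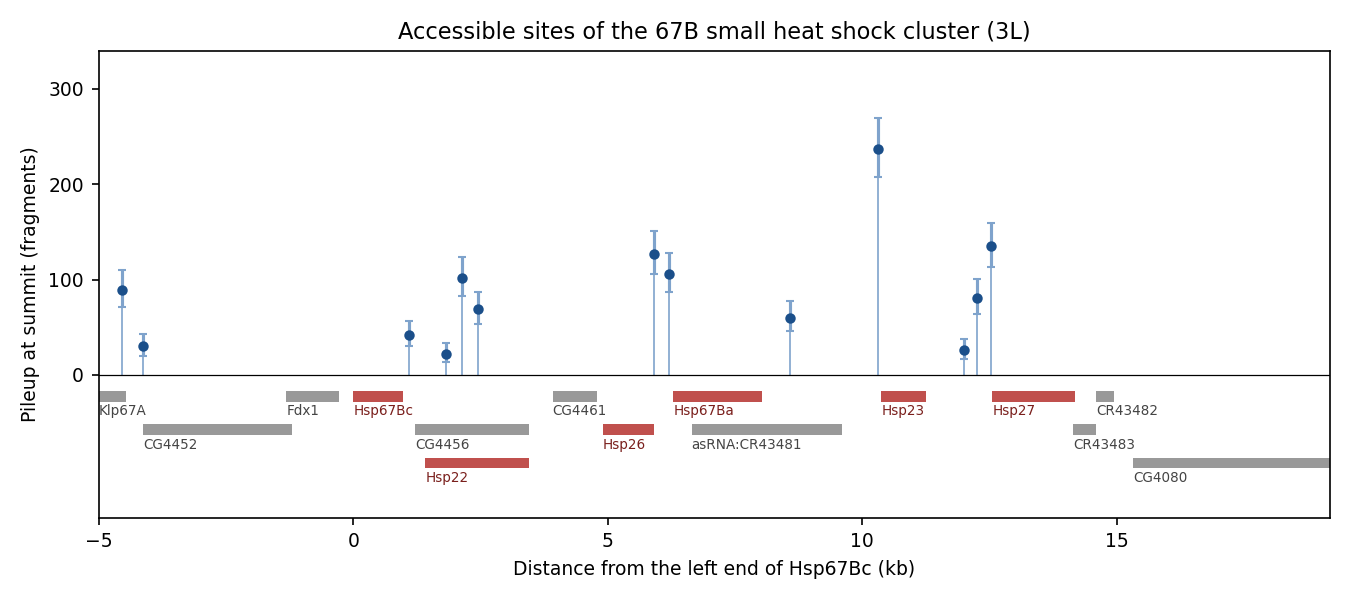
Pileup (fragments) at the 13 summits of the 67B stretch against distance from the left end of Hsp67Bc in kb, with exact Poisson 95% intervals as bars; boxes below the axis are annotated genes, the heat shock members in red and other genes in grey. The tallest site (237) is at the left end of Hsp23, close pairs lie in Hsp22 and at Hsp26 and Hsp27, and no summit lies to the right of the site at the left end of Hsp27.

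Hsp23, which encodes a cytosolic small heat shock protein, carried the strongest site of the stretch as a single broad peak. Its summit at 3L 9381816 lay 66 bp outside the left end of the gene, at 9381882, reaching 237 fragments (fold 13.5) over a background of 16.7 fragments. The interval was 394 bp wide, wider than 92.7% of the intervals in the list, whose median was 139 bp, and it held 1 summit. No summit lay inside the 884 bp gene or at its right end. This site was also the strongest in the windows of Hsp26, Hsp27 and Hsp67Ba.

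At Hsp27, Hsp26 and Hsp22 the accessible DNA was split into several sites, of which the 2 strongest were 273 to 327 bp apart. Hsp27, whose small heat shock protein is found in the nucleus, had its stronger summit 27 bp outside its left end (3L 9384036, pileup 135, fold 9.26) and a second 300 bp outside it (9383763, pileup 81, 64.3 to 101). The 2 summits were 273 bp apart, with 131 bp between the intervals. A further, weak summit at 9383510 had 26 fragments. No summit lay inside Hsp27 or to its right within 5 kb, and the next one on 3L, at 9392448, was 8412 bp away, while 9.18% of the gaps between neighbouring summits in the list were at least as long.

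Hsp26 encodes another cytosolic small heat shock protein, and its right end is 375 bp from the left end of Hsp67Ba, a further gene of the family. One summit lay 14 bp inside the right end of Hsp26 (3L 9377413, pileup 127, fold 7.20). The other, 296 bp away, lay in the gap, 93 bp outside the left end of Hsp67Ba (9377709, pileup 106, fold 6.13), with 152 bp between the intervals. Their counting intervals, 106 to 151 and 86.8 to 128, overlapped. The peak by Hsp67Ba also reached into the 250 bp around the end of Hsp26, so with these windows it counted for both genes. The left end of Hsp26 and the right end of Hsp67Ba had no peak. A further summit of 60 fragments lay at 9380098, inside the antisense RNA gene asRNA:CR43481, whose span overlaps the right part of Hsp67Ba.

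Hsp22, which encodes a small heat shock protein of the mitochondrial matrix, was accessible inside its annotated span and at neither end. Its span, 3L 9372931 to 9374964, is given for 2 RefSeq transcripts and shares its right end with CG4456, the gene also called Hsp67Bb. The 3 summits inside lay 403, 713 and 1040 bp from the left end, with pileups of 22 (13.8 to 33.3), 102 (83.2 to 124) and 69 (53.7 to 87.3). The stronger pair was 327 bp apart with 148 bp between the intervals. Their folds were 8.21 and 5.54. With windows of 1000 bp Hsp22 counted as open too, with 102 fragments. Because the spans overlap, these sites lie in CG4456 as much as in Hsp22, and the list does not tell which gene they belong to.

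Hsp67Bc, the fly relative of mammalian HSPB8, had the weakest end site of the 8 open genes. Its summit at 3L 9372605 was 108 bp outside the right end, with a fold of 3.72 and 42 fragments over a background of 10.6. It lay in the 225 bp between the ends of Hsp67Bc and CG4456, and counted for both. No summit lay inside Hsp67Bc. The left neighbour Fdx1, a ferredoxin gene whose end is 273 bp away, had no peak at an end either. Nor had CG4461, a further small heat shock family gene that lies between Hsp22 and Hsp26, or the pseudogenes CR43483 and CR43482 at the right of Hsp27. CG4080, the last gene of the stretch, had no summit in the part of it that the stretch includes.

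Over all heat shock loci, 8 of the 30 pairs of neighbouring summits were 250 to 350 bp apart (26.7%), of them 5 of the 12 pairs in 67B, against 11.1% of the 35528 pairs in the whole list. That distance range was chosen after the values were seen. The 30 pairs were taken only within the windows, so gaps across a window's limits are left out. The whole list includes every long gap, so the 2 shares are not fully alike. The free stretch between the intervals of the 2 strongest sites was 148 bp at Hsp22, 152 bp at Hsp26 and 131 bp at Hsp27. To the weak summit beside the pair it was 189 bp at Hsp22 and 86 bp at Hsp27. Over all pairs in the list at this distance and in separate intervals it had a median of 157 bp (quartiles 132 and 182).

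Hsp68, the stress-inducible relative of Hsp70 on 3R, had 1 strong site at its right end and none inside. The summit at 24057404 lay 94 bp outside the gene (24055080 to 24057310), with a fold of 12.1, a pileup of 212 and a background of 16.6. The interval was 282 bp wide, wider than 84.5% of all. The left end, which lies just inside the spans of CG6000 and lncRNA:CR44097, had no peak, and 5751 bp without a summit separated the right-end site from the next to its left. That one, in the gene Pisd (which encodes the enzyme that makes phosphatidylethanolamine in mitochondria), was the strongest of the window with 280 fragments (248 to 315) but a lower fold of 9.10, since its background was 29.9. The other pair in the window, with 115 and 123 fragments, lay in a shared interval where Atg6, an autophagy gene, and Pisd meet. To the right, a summit with 99 fragments lay 4 bp from the end of SMC1, a cohesin subunit gene.

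Hsp83, the only cytosolic Hsp90 gene of the fly and one that is active without heat, was accessible at both ends, very unequally. At the left end the summit (3L 3193140) lay 171 bp inside the gene, which spans 3192969 to 3197059. It had a fold of 11.3 and 181 fragments over a background of 15.2, and its interval of 269 bp was wider than 83.0% of all. At the right end a peak 120 bp outside the gene had a fold of 1.84 and 35 fragments (24.4 to 48.7). CG14966 begins 14 bp before the right end of Hsp83, and this weak peak lies inside CG14966. No summit was placed over the 4039 bp between these sites. The −log10 q of this weak peak was 2.15, where the lowest in the list was 1.30. The window held 8 summits, and the highest after that of Hsp83 itself was at gry, with 134 fragments. The other 5 belonged by position to neighbours. CG14965, at the left, had a summit of 63 fragments 16 bp from its end. Inside CG14966 or by its right end lay summits of 41 and 90 fragments, and at CG32276 summits of 76 and 89.

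Hsf had its strongest own site 20 bp outside its right end. That summit (2R 18134654, for the gene from 18130303 to 18134634) had a fold of 10.7 and 177 fragments over a background of 15.6. A pair of further summits lay inside the gene, 427 and 945 bp from this end, with 107 (87.7 to 129) and 37 (26.1 to 51.0) fragments. The left end, 57 bp from Dlip3, had no peak. The strongest summit of the window, 217 fragments (189 to 248) with a fold of 13.4, was 53 bp from the other end of Dlip3, 1862 bp from Hsf, and its interval overlapped that of Hsf's own site. Farther left, stau, which encodes the RNA-binding protein Staufen, had a summit of 144 fragments 34 bp from its end and another of 46 beyond it, and Spn55B, a serpin gene, had one of 63. On the right, Pcl, which encodes an accessory subunit of the histone methyltransferase PRC2, begins 792 bp from Hsf, and a summit with 116 fragments lay 260 bp from its end.

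**Figure D3:**
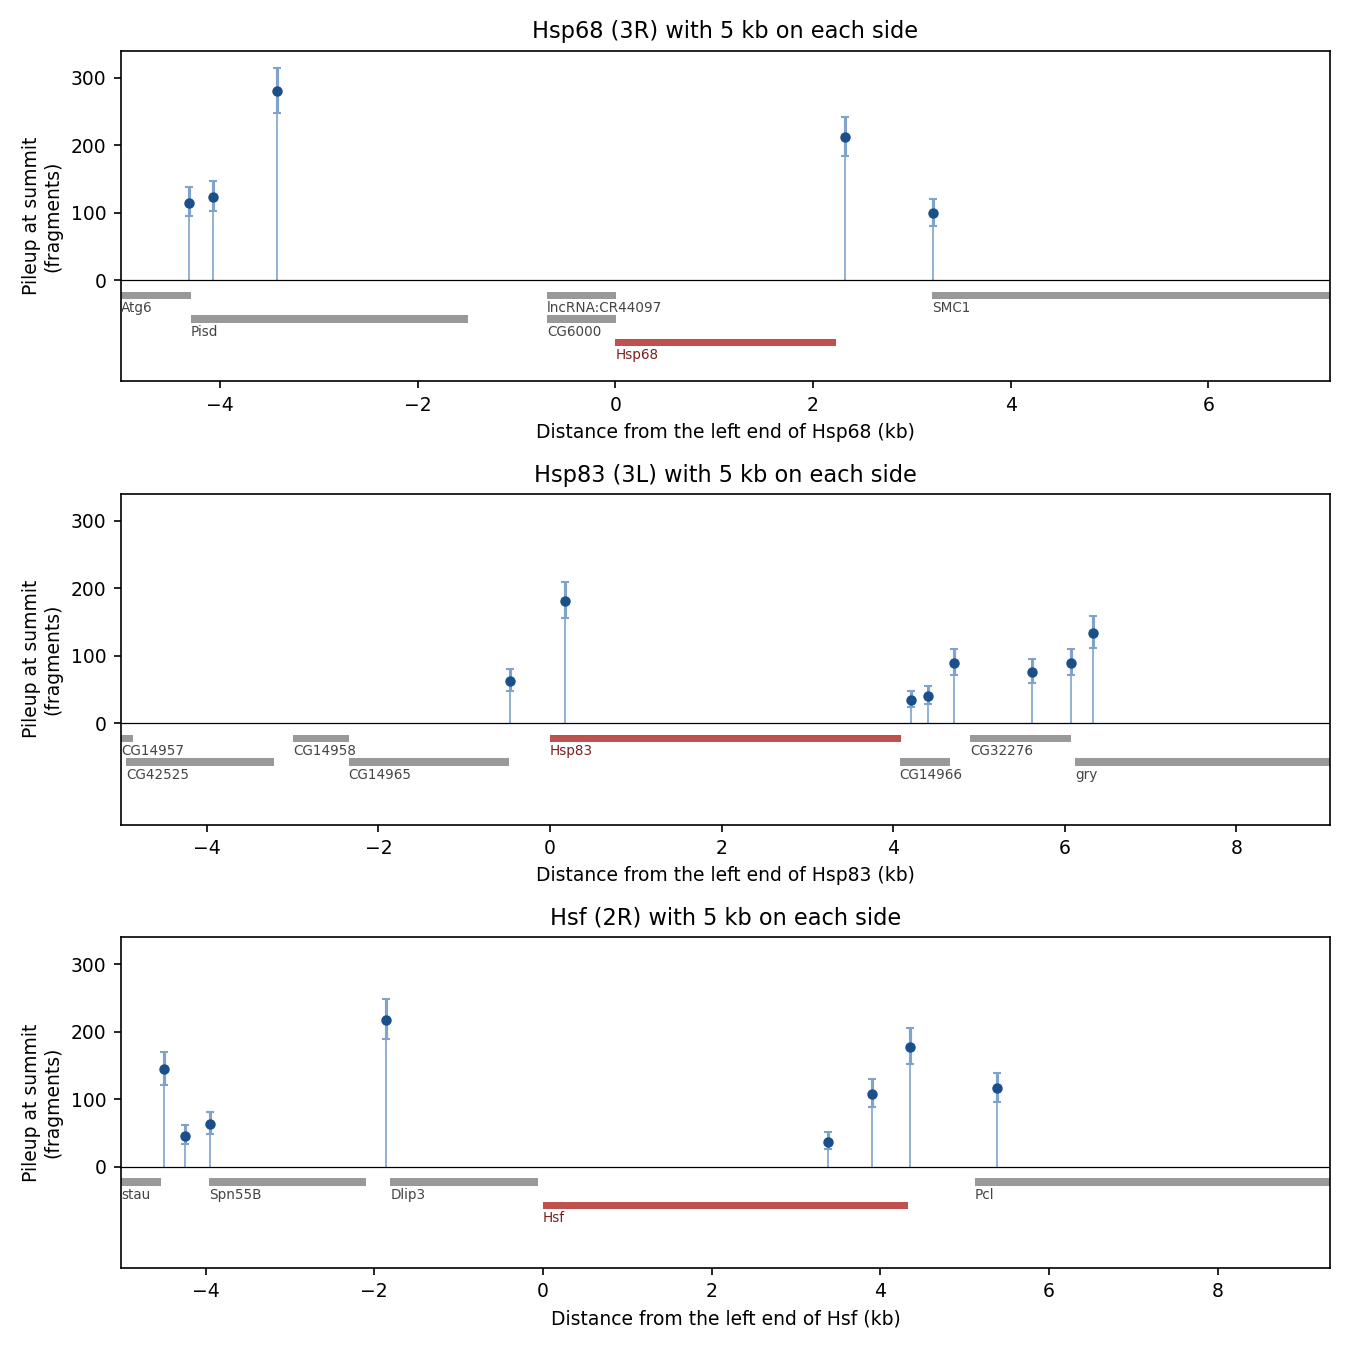
Pileup (fragments) at the summits around Hsp68, Hsp83 and Hsf against distance from the left end of each gene in kb, drawn as for the 67B stretch (bars: exact Poisson 95% intervals; members red, other genes grey). Hsp68 and Hsf have their own strongest site at the right end (212 and 177) and Hsp83 at the left (181), and long parts of all 3 genes have no summit.

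The heat shock genes had a summit inside about as often as genes in general. One lay inside 4 of the 9 (44.4%), namely Hsp22, Hsf, Hsp26 and Hsp83, against 43.9% of all protein-coding genes. The local background was above the genome-wide value of 9.91 fragments at most of the 34 summits. It lay within 0.005 of that value at 2 of them (5.88%), both left of 67B, against 30.9% over the whole list. The median background was 15.7 at the 34 summits and 12.5 over the list. None of the 34 lies on X, which the whole list includes, and the part of this in either difference was not tested.

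Other chaperone and 67B genes were grouped in lists to set the 9 beside them, with a further list of genes for polymerase pausing and GAGA binding. Of the 47 genes with a match on the chaperone and 67B lists, 32 were open at an end (68.1%), while 60.4% of all protein-coding genes were, and the lists differed widely. The 47 include, as not open, the 6 Hsp70 copies, whose values are uncertain for the reason given below. The counts are descriptions and were not tested.

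The near-identical copies of Hsp70, the main heat-inducible chaperone gene, had no peak. None of the 6 genes (Hsp70Aa, Hsp70Ab, Hsp70Ba, Hsp70Bb, Hsp70Bbb and Hsp70Bc, all on 3R) had one at an end or a summit inside. The nearest summit was 583 bp from Hsp70Aa and 555 bp from Hsp70Ab, with 48 and 21 fragments, and 3158 to 10163 bp from the other copies. Hsp68, a single-copy member of the same family, had 212 fragments at its end. Reads from identical copies cannot be assigned to one of them, and how such reads were treated is not given in the sources used here, so these 6 values are uncertain. The part of read assignment in the absence of peaks was not tested.

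The constitutive Hsp70 relatives were split. Of the 6 cognate Hsc70 and Hsp110 genes 4 were open, led by Hsc70-5, the mitochondrial form, with 260 fragments (229 to 294) and Hsc70-4, the main cytosolic form, with 135 (113 to 160). Hsc70-1 and Hsc70-2 had no peak at an end. The Hsp90 relatives and cochaperones were all open, 10 of 10 with a median of 117 and a range of 80 to 166 fragments. Fkbp59, an immunophilin gene, was highest, and p23 and nudC were next with 141 each. None reached the 181 fragments of Hsp83, although the interval of Fkbp59 (142 to 193) overlapped that of Hsp83.

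J-protein and Bag genes, whose products assist Hsp70, were open in 7 of 7 cases, with a median of 130. DnaJ-H led with 270 (239 to 304), followed by l(3)80Fg with 171. Chaperonin genes were open in 9 of 12 cases but mostly weaker, with a median of 62. CCT4 and CCT7, subunits of the cytosolic chaperonin, had 163 and 101, and Hsp60B and Hsp60C were among the 3 without a peak at an end. Small heat shock family genes outside the 9 were mostly without a peak. Only CG14207 of 5 was open, with 111 (91.3 to 134), while CG13133 and CG4461 were among the 4 that were not.

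Genes for factors that act in polymerase pausing or bind GA-rich DNA at such promoters were open in 10 of 10 cases, against 60.4% of all protein-coding genes. Their median of 95 was close to the 98 of all open genes. The lowest of the 10 was Trl, the GAGA factor gene, with 20 fragments, the lowest pileup in the list. Clamp, which encodes a zinc-finger protein that binds GA repeats, had 179 (154 to 207), and Nelf-A, which encodes a subunit of the negative elongation factor NELF, had 168 (144 to 195).

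**Figure D4:**
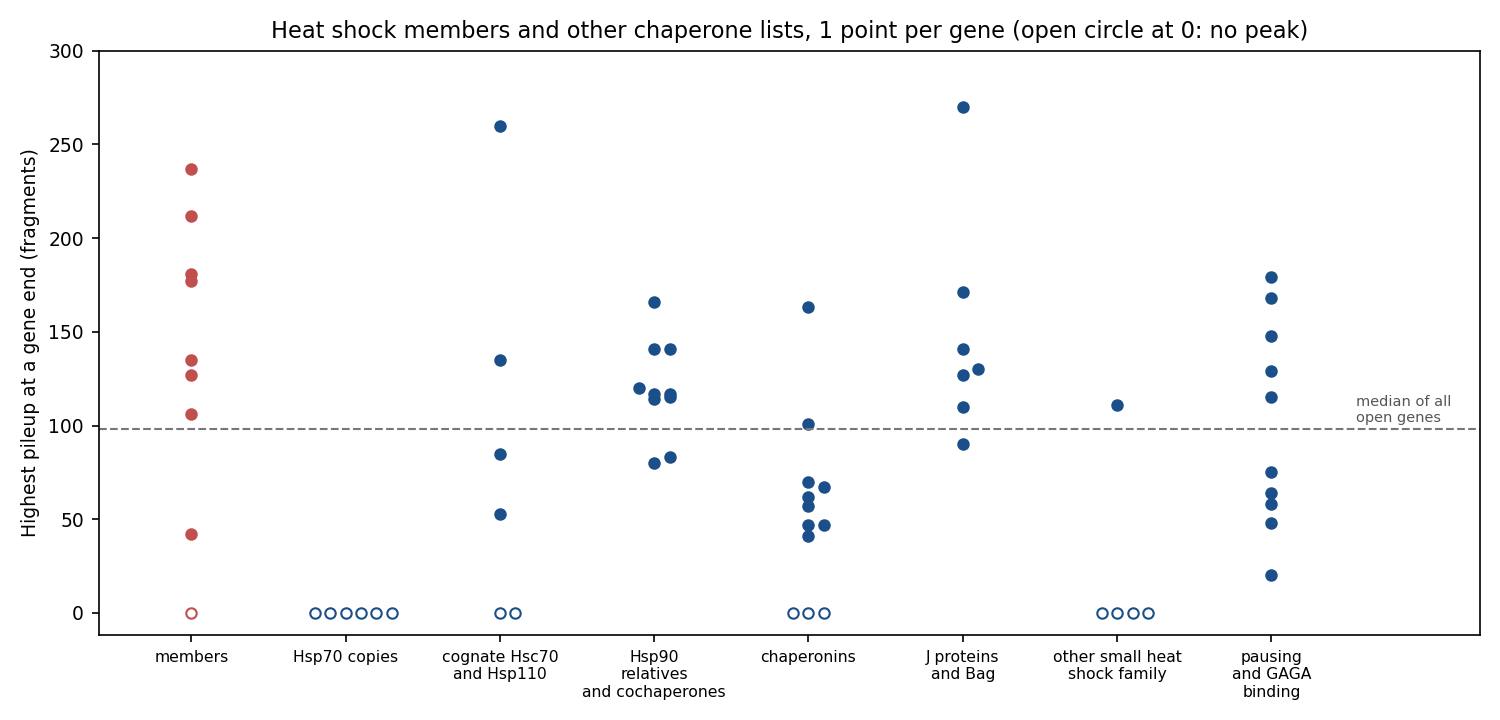
Highest pileup (fragments) of a peak within 250 bp of a gene end, 1 point per gene, for the 9 heat shock members (red, left) and for the other lists (blue); open circles at 0 are genes without such a peak and the dashed line is the median of 98 over all open protein-coding genes. All 6 Hsp70 copies are at 0, values that are uncertain because reads from identical copies cannot be assigned, and the chaperonin genes lie mostly below the line.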

How the data were processed

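Values come from 1 peak list deposited for the series, which holds 1 line per summit. Per the submitters' processing notes, Bowtie2, MACS2, deepTools and the build dm6 were used, with no versions or settings. Pooling of the 2 libraries, read filters, the shift for Tn5, duplicates and multiply mapping reads are steps for which the sources used here give nothing, and each could change a height. The fold enrichment (a ratio), −log10 p and −log10 q columns are the authors' values, as deposited. The deposited score and the interval bounds and summit offsets (in bp) are also the authors', and the score was not used. In 65 lines with no summit the interval's middle was taken. The number of sample columns left out was 0.

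Pileup and background were solved from fold and −log10 p as the values that give both under a Poisson model (upper tail, pseudocount of 1 added to each side of the fold). All 35535 summits were met within 0.001. On summits simulated under this same model 3000 of 3000 pileups were recovered, which checks the solving step and not the model. Whether mates or fragments were piled up is not settled, and intervals are too narrow if mates were counted separately.

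Genes came from a RefSeq table of Release 6, with 17807 genes on 7 chromosomes and no strand. A gene counted as open when a peak overlapped by 1 bp or more the 250 bp on either side of an end. The start-based windows and promoter motifs that were planned need strand and sequence and were not run, and gene ends took their place. Of 78 list and marker entries 2 had no single match and 1 repeated another. The members, lists and comparisons were chosen with earlier results of these data known. Genes named were the 9 members, all genes of the 67B stretch, the gene nearest to the strongest summit of each window, and in each list the 2 open genes of highest pileup and, in alphabetical order, the first 2 not open. Other neighbouring genes were named after their values were seen. Python 3.11.15, numpy 2.4.6, scipy 1.17.1 and pandas 2.3.3 were used.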

Additional observations from a re-analysis of the deposited data

How the results depend on the processing

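The 34 summits became 27 with a −log10 q of at least 10, 26 with a fold at or above the list's median, 33 counted by interval, 25 with 2 kb on each side and 55 with 10 kb. The 13 summits of the 67B stretch became 9 to 13 under the alternatives run. The count of 8 open members was the same, and with the same genes, under both stricter thresholds, with windows of 100 bp and when the summit itself had to lie in the window, while 51.3 to 57.8% of all protein-coding genes were open, and it was 9, with Hsp22, at 1000 bp, where 71.9% were. The median highest pileup of open members was 156, and 135 at 1000 bp. Of 45 values for single members 44 stayed within their counting interval, the exception being Hsp22 at 1000 bp (102 fragments). Each value is the highest at an end, so a stricter threshold or narrower window leaves it unchanged while its peak remains. The 44 are therefore no measure of error. The 42 open genes among the 57 of all other lists, pausing and GAGA binding included, became 37 to 46. With 200 to 400 bp, an alternative chosen after seeing the data, 10 of the 30 pairs of summits counted, against 19.2% of all pairs. No paired analysis was possible because there is 1 group and 1 list for both libraries, and leaving out a library was not run for the same reason. The results on gene starts and on promoter motifs were not run.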

Other observations

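Trl, which encodes GAGA factor, was open at an end only through a peak of 20 fragments (12.2 to 30.9), the lowest pileup in the whole list, while 17 summits lay inside the gene, the highest with 374 fragments (337 to 414). It was picked out after the values were seen.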
